A study of Drosophila melanogaster with 24 samples.

Results

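The genes described here encode neuropeptides and peptide hormones of the fruit fly Drosophila melanogaster. They were taken by symbol from a fixed list of 33 names, of which 32 were found among the 17753 genes of the deposited count tables. The missing name, IPNamide, is a peptide cut from the precursor of the Nplp1 gene, which was found. A filter on low counts kept 17 of the 32 for testing, among 6147 genes kept in all. The 17 tested genes were Pdf, sNPF, AstC, Dh31, Dh44, Nplp1, Nplp2, Nplp3, Capa, Mip, Ms, Proc, ITP, Hug, Ilp2, Ilp3 and Ilp6. The 15 others, NPF, AstA, AstCC, Nplp4, Tk, CCAP, Crz, Lk, SIFa, amn, FMRFa, Akh, Dsk, Ilp5 and CNMa, had between 2 counts (Akh) and 159 counts (AstA) over all 24 libraries.

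Neuropeptides are made as precursor proteins, cut and amidated inside dense core vesicles, and released to act on receptors of other cells, most of them G protein-coupled. In the fly head each gene is usually transcribed in a small, fixed set of neurons, many of them neurosecretory cells of the pars intercerebralis or the subesophageal zone, and some peptides also come from fat body, glia or gut. Insulin-like peptides act instead through a receptor tyrosine kinase and set growth, metabolism and lifespan.

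The study asked which RNAs associate with Nab2 and with Ataxin-2 in brain neurons. Nab2 is a polyadenosine-binding zinc finger protein whose human counterpart is mutated in an inherited intellectual disability, and Ataxin-2 (Atx2) is an RNA-binding regulator of translation linked to neurodegeneration. Adult female heads came from elav>Nab2-FLAG flies, from elav>Atx2-3xFLAG flies and from control flies with the elav>Gal4 driver alone. All 3 genotypes carried the driver, which acts mainly in neurons. Each had 4 biological replicates, and 1 replicate was a formaldehyde-fixed lysate of 300 pooled heads. Of each lysate, 20% gave an Input library of total head RNA and 80% was precipitated with anti-FLAG beads to give a RIP library, so that 12 lysates gave 24 libraries in 6 groups. The age of the flies is not given in the labels. The control carried no tagged transgene, so the tagged protein, the transgene insertion and the strain background cannot be told apart. Heads also hold eyes, fat body, muscle and glia, so many of the cells behind an Input library, or behind RNA that sticks to beads, do not make the tagged protein. In these bulk samples, fewer cells of a type and less RNA per cell cannot be told apart either.

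Counts assigned to genes came to 254077 to 2109561 per library in Nab2-FLAG RIP, 661374 to 2000195 in Atx2-3xFLAG RIP and 220894 to 1444393 in control RIP. In Input they came to 511415 to 1079829 in Nab2-FLAG, 601479 to 1091678 in Atx2-3xFLAG and 665341 to 877212 in control. The shallowest library, control RIP replicate 3, stood apart: 3 counts there equal 14.3 counts per 1e6 counts (CPM), against 1.19 CPM in the deepest, Nab2-FLAG RIP replicate 1. Nab2 itself averaged 121 ± 28.6 CPM in Nab2-FLAG Input and 24.4 ± 4.54 CPM in control Input (SD, n = 4 each), whereas Atx2 in Atx2-3xFLAG differed from control by 0.09 on the log2 scale in Input, adjusted p = 0.678 (edgeR quasi-likelihood test with Benjamini-Hochberg adjustment, used for every adjusted p below unless another tool is named). Between the tagged genotypes, Atx2 was lower in Nab2-FLAG than in Atx2-3xFLAG RIP (-0.38, adjusted p = 0.0170). Against control, its own gene did not check the Atx2-3xFLAG label. The genotypes also differed in markers of head cell types. All 4 tested muscle markers were higher in each tagged genotype than in control, in Input and in RIP. Of 10 photoreceptor markers, 6 were lower than control in both tagged Inputs, and 2 were higher in Nab2-FLAG. Of 10 neuron markers in Input, Nab2-FLAG had 2 above and 1 below control, and Atx2-3xFLAG had 5 above and 1 below. The part of these marker differences in the results below was not tested, except where a value is given.

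The neuropeptide genes as a set took a small share of each library, 0.158% to 0.229% of counts in Nab2-FLAG RIP, 0.193% to 0.225% in Atx2-3xFLAG RIP and 0.0946% to 0.135% in control RIP. In Input the share was 0.134% to 0.166% in Nab2-FLAG, 0.119% to 0.144% in Atx2-3xFLAG and 0.0670% to 0.104% in control. Every tagged library lay above every control library of its kind. Without Nplp3 and Nplp2, the most abundant of the set by CPM, the share was 0.0337% to 0.0418% in Nab2-FLAG RIP, 0.0401% to 0.0469% in Atx2-3xFLAG RIP and 0.0327% to 0.0385% in control RIP. In Input it was then 0.0250% to 0.0276% in Nab2-FLAG, 0.0228% to 0.0304% in Atx2-3xFLAG and 0.0191% to 0.0268% in control. The groups then overlapped with control except for Atx2-3xFLAG RIP.

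The precursor gene Nplp3 (FBgn0042201; chr3L:16318024-16318690, no overlap with another annotated gene; coordinates of Release 6, RefSeq) was 2.65 to 2.99 times as abundant in both tagged genotypes as in control. Nplp3 encodes a small precursor whose peptides are known from peptidomic surveys of the fly nervous system and which has no assigned receptor. In Input its level was 1119, 989.9, 1016 and 968 CPM in Nab2-FLAG lysates, 892, 830.4, 927 and 991 CPM in Atx2-3xFLAG, and 260.3, 273, 334 and 508 CPM in control (replicates 1 to 4). In RIP it was 1170.4, 1041, 844 and 1257 CPM in Nab2-FLAG lysates, 949, 1199.6, 1115 and 1211 CPM in Atx2-3xFLAG, and 279, 323, 386 and 613 CPM in control. No library of a tagged genotype fell within the range of control, and replicate 4 was the highest control in both pools. Nplp3 rose by 1.58 ± 0.15 (log2 difference ± SE, 2.99-fold) in Nab2-FLAG Input, adjusted p = 2.17e-08, and by 1.41 ± 0.15 (2.65-fold) in Atx2-3xFLAG Input, adjusted p = 7.81e-08. In RIP it rose by 1.42 ± 0.23 in Nab2-FLAG, adjusted p = 0.00160, and by 1.44 ± 0.23 in Atx2-3xFLAG, adjusted p = 0.00107. These comparisons share the control libraries of their pool. Between the tagged genotypes the Input difference was 0.17 (95% interval -0.12 to 0.46, adjusted p = 0.616). Since Input held the same difference as RIP, the recovery of Nplp3 by the beads was also close to that in control, as given with the RIP-to-Input ratios below.

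Nplp3 was also the one gene of the set called in Nab2-FLAG Input, 1 of 17, where 12.2% of all tested genes were called. In Atx2-3xFLAG Input 5 of 17 were called, against 16.5% of all genes: Nplp3, Proc and Ilp3 were higher than control, and Nplp2 and Ms were lower. In Nab2-FLAG RIP 2 of 17 were called, Nplp3 higher and Capa lower, against 20.0% of all genes. In Atx2-3xFLAG RIP 5 of 17 were called, against 24.1% of all genes: Nplp3 and Proc were higher, and Capa, Mip and AstC were lower. Between the tagged genotypes 1 of 17 was called in Input (Nplp2, 4.26% of all genes) and 1 of 17 in RIP (Proc, 4.34% of all genes). With 17 genes, each of these counts is within a few genes of the share called among all genes. None is therefore read as a trait of the neuropeptide genes as a set, and a difference as a set was not tested. Levels of a tagged genotype that did not overlap control, in either direction, were common among all tested genes. Their share was 15.0% in Nab2-FLAG Input, 17.1% in Atx2-3xFLAG Input, 18.6% in Nab2-FLAG RIP and 22.9% in Atx2-3xFLAG RIP. Between the tagged genotypes it was 9.68% in Input and 11.1% in RIP. The median log2 difference from control over the 17 was -0.14 in Nab2-FLAG Input, -0.10 in Atx2-3xFLAG Input, -0.04 in Nab2-FLAG RIP and -0.02 in Atx2-3xFLAG RIP, against medians of -0.02, -0.01, -0.01 and -0.03 over all 6147 genes in the same order.

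**Figure D1:**
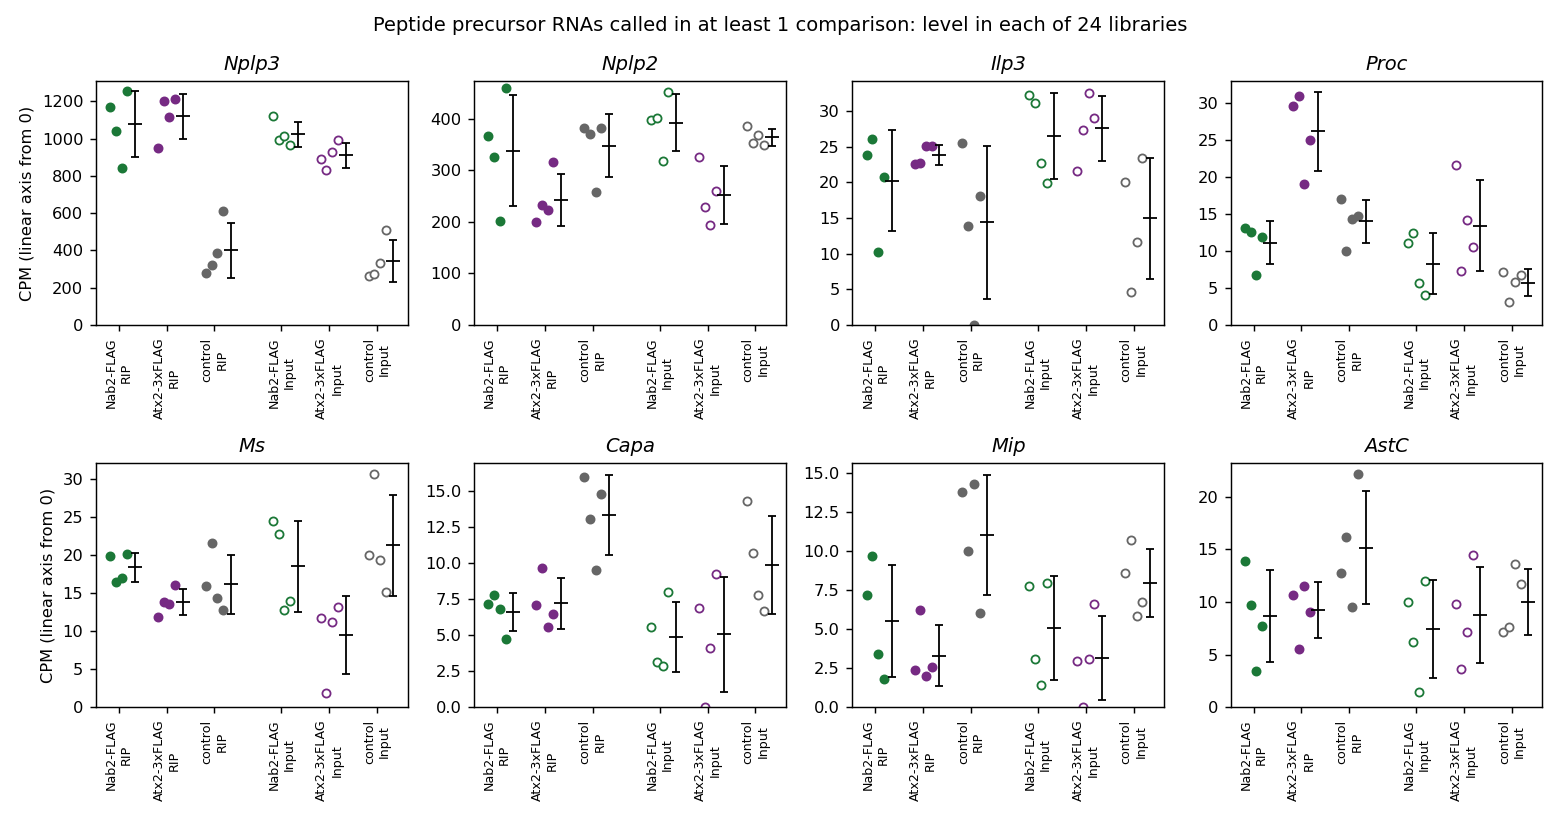
Level in CPM (TMM-scaled, y axis) of the 8 genes called in a comparison between genotypes, by genotype (x axis), with 1 point per library, filled for RIP and open for Input, and bars for the mean ± SD of 4 libraries. Nplp3 lies at 830.4 to 1257 CPM in all tagged libraries and at 260.3 to 613 CPM in all control libraries, so that no tagged library falls in the control range.

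Nplp2 (FBgn0287423; chr3L:13356376-13357223) differed in the opposite sense and in Atx2-3xFLAG flies. It was first described as a neuropeptide-like precursor and is also known as a lipid-binding product of the fat body. Its Input level was 326, 228, 193 and 259.7 CPM in Atx2-3xFLAG, and 386, 353, 369 and 349 CPM in control. All 4 Atx2-3xFLAG libraries lay below all control libraries. It fell by 0.53 on the log2 scale (SE 0.12, fold 0.694), adjusted p = 0.00176. In Nab2-FLAG Input the level was 397, 401, 318 and 453 CPM, which overlapped control (log2 difference 0.11, adjusted p = 0.670) and exceeded Atx2-3xFLAG by 0.63 ± 0.12 (1.55-fold), adjusted p = 0.000636, with 1 library of each tagged genotype within the range of the other. In RIP the level was 366, 327, 201 and 460.1 CPM in Nab2-FLAG lysates, 201, 232, 223 and 315 CPM in Atx2-3xFLAG, and 383, 369.9, 258 and 382 CPM in control. The Atx2-3xFLAG difference from control in RIP had the same sign, -0.58, and did not pass the test, adjusted p = 0.0732. The Atx2-3xFLAG Input call was lost when libraries were scaled by library size alone (-0.28, adjusted p = 0.171) and was kept in every other alternative run.

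Markers of the fat body also differed, and not in a single direction. The 7 listed markers, none at 0 in any group, summed to 9.73% to 12.02% of scaled counts in Nab2-FLAG Input, 6.95% to 7.65% in Atx2-3xFLAG Input and 10.5% to 14.2% in control Input. Of the 6 tested, 1 was higher and 2 were lower in Atx2-3xFLAG Input than in control, and 4 were higher in Nab2-FLAG than in Atx2-3xFLAG Input. The yolk protein genes Yp1 (-0.96, adjusted p = 1.51e-08) and Yp3 (-0.39, adjusted p = 0.0322) were the lower ones in Atx2-3xFLAG Input. The storage protein gene Lsp2 was the higher one, at 652 ± 26.5 CPM in Atx2-3xFLAG Input and 243 ± 24.5 CPM in control Input (SD, n = 4 each; 1.42, adjusted p = 2.10e-13). Their part in the Nplp2 difference was not tested. The third tested precursor of the series, Nplp1, which gives the peptides MTYamide and IPNamide, was not called in any comparison. It averaged 19.4 ± 7.29 CPM in Nab2-FLAG Input, 13.7 ± 3.06 CPM in Atx2-3xFLAG Input and 14.7 ± 5.10 CPM in control Input (SD, n = 4 each). Nplp4 had 6 counts in all libraries together.

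The insulin-like peptides Ilp2, Ilp3 and Ilp5 are made by the insulin-producing cells, median neurosecretory cells of the brain, and Ilp6 mainly by fat body and glia. Ilp3 (FBgn0044050; chr3L:9801298-9802120) was measured in Input at 32.3, 31.1, 22.7 and 20.0 CPM in Nab2-FLAG lysates, 21.6, 27.4, 32.6 and 29.0 CPM in Atx2-3xFLAG, and 20.0, 4.60, 11.6 and 23.5 CPM in control. The 2 lowest values were control replicates 2 and 3, and the highest control library lay within the range of both tagged genotypes. Ilp3 rose by 0.87 ± 0.31 (1.83-fold) in Atx2-3xFLAG Input, adjusted p = 0.0494, just past the threshold of 0.05. The Nab2-FLAG difference was of the same size, 0.86 ± 0.32, and did not pass, adjusted p = 0.0686. The Atx2-3xFLAG call was kept in 4 of 12 fits that left out a lysate. It was lost without any one of Nab2-FLAG replicates 1, 2 and 3, Atx2-3xFLAG replicates 2, 3 and 4, or control replicates 2 and 3, with adjusted p of 0.0517 to 0.256, the highest without control replicate 2, where the difference was 0.56. DESeq2 did not call it (adjusted p = 0.104). In RIP, Ilp3 was at 23.9, 26.2, 10.2 and 20.8 CPM in Nab2-FLAG lysates, 22.6, 22.7, 25.1 and 25.1 CPM in Atx2-3xFLAG, and 25.5, 13.9, 0 and 18.1 CPM in control, with no call. The value of 0 belongs to the shallowest library.

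Ilp5 (FBgn0044048; chr3L:9823349-9823897) did not pass the filter on low counts and is described because of its values. Its Input level was 4.45, 13.5, 9.95 and 3.99 CPM in Nab2-FLAG lysates, 9.82, 11.0, 13.2 and 7.91 CPM in Atx2-3xFLAG, and 1.43, 1.53, 3.88 and 1.68 CPM in control. In RIP it was 2.79, 6.79, 3.40 and 7.13 CPM in Nab2-FLAG lysates, 8.31, 9.65, 6.54 and 9.09 CPM in Atx2-3xFLAG, and 5.32, 0.771, 4.77 and 1.34 CPM in control. The tagged genotypes were above all control libraries in Input, and Atx2-3xFLAG was above all control libraries in RIP. In Input, the lowest Nab2-FLAG library (3.99 CPM) and the highest control library (3.88 CPM) had 2 counts each, so scaling alone parts them. The shares of genes without overlap given above cover tested genes only, not those under the filter, such as Ilp5 and SIFa. These levels rest on 26, 35 and 5 counts in Nab2-FLAG, Atx2-3xFLAG and control Input over 4 libraries each. The ratio to control was taken between summed counts over summed scaled library sizes, so deep libraries weigh more than in a mean of CPM. It was 4.17 in Nab2-FLAG Input (95% exact Poisson interval 1.58 to 13.9) and 5.21 in Atx2-3xFLAG Input (2.03 to 17.0). In RIP, with 27, 55 and 9 counts, it was 2.14 in Nab2-FLAG (0.977 to 5.17) and 3.65 in Atx2-3xFLAG (1.79 to 8.40). Such intervals cover counting error only, not the spread between lysates. With no filter, edgeR called Ilp5 in Nab2-FLAG Input (1.97 ± 0.66, adjusted p = 0.0428, 6.71% of all genes called), in Atx2-3xFLAG Input (2.31 ± 0.63, adjusted p = 0.00415, 8.90% called) and in Atx2-3xFLAG RIP (1.82 ± 0.52, adjusted p = 0.00577, 12.4% called).

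Ilp3 and Ilp5 each overlap another gene, and counting without strand could mix their reads. Ilp3 overlaps CG32052, which did not pass the test in Input (Atx2-3xFLAG 0.29, adjusted p = 0.777, and Nab2-FLAG -0.28, adjusted p = 0.831). Ilp5 overlaps CG43897, which differed from control by -0.48 in Nab2-FLAG Input (adjusted p = 0.00120) and -0.50 in Atx2-3xFLAG Input (adjusted p = 0.000589). In control Input CG43897 had 1107 counts and Ilp5 had 5. Mixing of reads was not tested. Ilp2, beside Ilp3 on the chromosome, was not called. Its Input level averaged 12.4 ± 6.40 CPM in Nab2-FLAG lysates, 10.4 ± 3.51 CPM in Atx2-3xFLAG and 8.11 ± 5.27 CPM in control (SD, n = 4 each), with log2 differences of 0.57 and 0.33 from control (adjusted p = 0.506 and 0.707). Ilp6 overlapped between all Inputs, at 57.9, 39.4, 61.1 and 49.9 CPM in Nab2-FLAG lysates, 74.7, 52.9, 62.1 and 58.0 CPM in Atx2-3xFLAG, and 54.3, 52.1, 69.9 and 60.4 CPM in control. Its RIP level was 44.6, 49.4, 44.3 and 55.9 CPM in Nab2-FLAG lysates, 62.9, 63.4, 59.8 and 58.0 CPM in Atx2-3xFLAG, and 61.7, 60.9, 76.3 and 55.1 CPM in control. The Nab2-FLAG RIP libraries lay below all Atx2-3xFLAG ones (-0.29, adjusted p = 0.301) and, apart from replicate 4, below control (-0.31, adjusted p = 0.148), without a call.

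**Figure D2:**
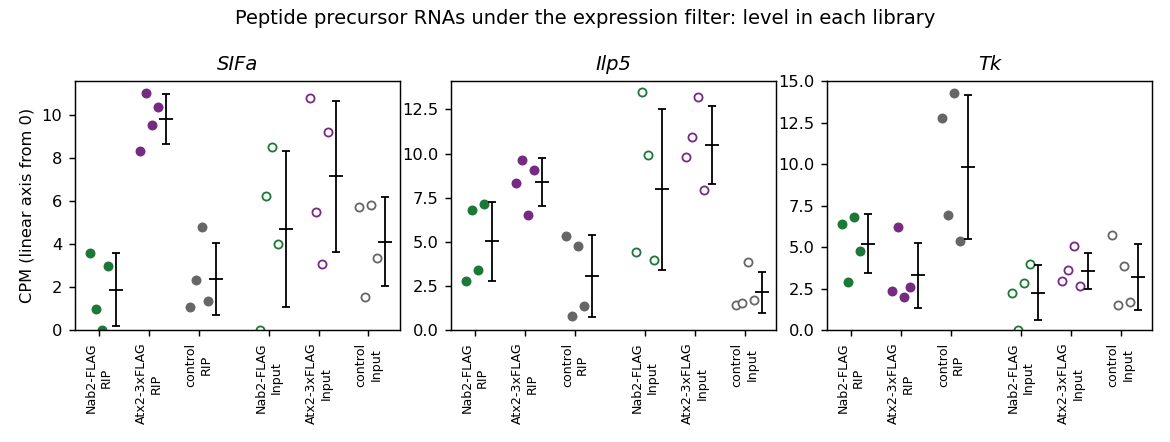
Level in CPM (y axis) of SIFa, Ilp5 and Tk, 3 genes under the filter on low counts, by genotype (x axis), with 1 point per library, filled for RIP and open for Input, and bars for the mean ± SD of 4 libraries. SIFa in Atx2-3xFLAG RIP lies at 8.31 to 11.0 CPM, above the 0 to 4.77 CPM of the other RIP groups. Tk in control RIP reaches 14.3 CPM, which is 3 counts in the shallowest library.

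Proc and Ms, which encode peptides that act on muscle, were called in opposite directions in Atx2-3xFLAG Input. Neither of these Input calls held in every alternative run. In Atx2-3xFLAG RIP, Ms was not called against control (-0.25, adjusted p = 0.523). Proc (FBgn0045038; chr2L:7864642-7871432, no overlapping gene) encodes proctolin, which stimulates muscle contraction. In RIP it was at 13.1, 12.6, 6.81 and 11.9 CPM in Nab2-FLAG lysates, 29.7, 31.0, 19.1 and 25.1 CPM in Atx2-3xFLAG, and 17.0, 10.0, 14.3 and 14.8 CPM in control. All 4 Atx2-3xFLAG libraries were above every library of the other genotypes. Proc rose by 0.86 ± 0.25 (1.81-fold) in Atx2-3xFLAG RIP, adjusted p = 0.00981, and the Nab2-FLAG level was lower than the Atx2-3xFLAG one by a log2 difference of -1.04 ± 0.24 (fold 0.485), adjusted p = 0.00532. In Input, Proc was at 11.1, 12.4, 5.68 and 3.99 CPM in Nab2-FLAG lysates, 21.6, 7.30, 14.2 and 10.5 CPM in Atx2-3xFLAG, and 7.15, 3.07, 5.82 and 6.71 CPM in control. The Atx2-3xFLAG libraries were again above all control ones, but only by 7.30 CPM at the lowest against 7.15 CPM at the highest. These levels rest on 4 to 22 counts per library in Atx2-3xFLAG and 2 to 5 in control, 48 and 14 in sum. Proc rose by 1.30 ± 0.45 (2.46-fold) in Atx2-3xFLAG Input, adjusted p = 0.0413. The Input call was lost without Atx2-3xFLAG replicates 1 or 3 or control replicates 1, 2 or 3, with adjusted p of 0.0631 to 0.227, the highest without Atx2-3xFLAG replicate 1, where the difference was 0.96. DESeq2 did not make it (adjusted p = 0.123). The RIP call against control was lost without control replicate 2 (0.68, adjusted p = 0.0715), whereas the RIP call between the tagged genotypes was kept in all alternatives run.

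Ms (FBgn0011581; chr3R:24341551-24343825) encodes myosuppressin, which inhibits muscle. Its Input level was 24.5, 22.8, 12.8 and 14.0 CPM in Nab2-FLAG lysates, 11.8, 1.83, 11.2 and 13.2 CPM in Atx2-3xFLAG, and 20.0, 30.7, 19.4 and 15.1 CPM in control. All Atx2-3xFLAG libraries were below all control libraries, and the lowest, replicate 2, rests on 1 count. In this comparison 17.1% of all tested genes had levels without overlap, in either direction. Ms fell by 1.06 on the log2 scale in Atx2-3xFLAG Input (SE 0.36, fold 0.478), adjusted p = 0.0328. The call was lost without Atx2-3xFLAG replicates 2 (-0.83, adjusted p = 0.107) or 3 (adjusted p = 0.0547), without control replicates 1 (adjusted p = 0.0570) or 2 (-0.83, adjusted p = 0.176), and with DESeq2 (adjusted p = 0.0717). In RIP, Ms was at 19.9, 16.5, 17.0 and 20.2 CPM in Nab2-FLAG lysates, 11.9, 13.8, 13.6 and 16.0 CPM in Atx2-3xFLAG, and 16.0, 21.6, 14.3 and 12.8 CPM in control. Both tagged genotypes overlapped control there, and the Nab2-FLAG libraries lay above the Atx2-3xFLAG ones without a call (0.44, adjusted p = 0.364).

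Capa, Mip and AstC were called lower than control in Atx2-3xFLAG RIP, and Capa also in Nab2-FLAG RIP. Capa (FBgn0039722; chr3R:29912991-29914346) encodes the capability peptides, which act on fluid secretion by Malpighian tubules. Its RIP level was 7.17, 7.75, 6.81 and 4.76 CPM in Nab2-FLAG lysates, 7.12, 9.65, 5.53 and 6.49 CPM in Atx2-3xFLAG, and 16.0, 13.1, 9.54 and 14.8 CPM in control. The Nab2-FLAG libraries were all below control and the Atx2-3xFLAG ones overlapped it by 1 library. Capa fell by 1.12 (SE 0.33, fold 0.459) in Nab2-FLAG RIP, adjusted p = 0.0134, and by 1.03 (SE 0.32, fold 0.489) in Atx2-3xFLAG RIP, adjusted p = 0.0138, and these comparisons share the control libraries. The first call was lost without Nab2-FLAG replicate 4 (-0.96, adjusted p = 0.0730), the second without Atx2-3xFLAG replicate 3 (-0.89, adjusted p = 0.0638), and both with DESeq2 (adjusted p = 0.0521 in Nab2-FLAG and 0.0560 in Atx2-3xFLAG). The second call was also lost with replicate 3 of all 3 genotypes left out (adjusted p = 0.0590). In Input, Capa was at 5.57, 3.11, 2.84 and 7.98 CPM in Nab2-FLAG lysates, 6.88, 0, 4.07 and 9.23 CPM in Atx2-3xFLAG, and 14.3, 10.7, 7.76 and 6.71 CPM in control. The Input differences had the same sign, -1.11 and -0.88, and did not pass the test (adjusted p = 0.206 and 0.271).

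Mip (FBgn0036713; chr3L:17344947-17349666) encodes the myoinhibitory peptides, which are also ligands of the sex peptide receptor. Its RIP level was 7.17, 9.69, 3.40 and 1.78 CPM in Nab2-FLAG lysates, 2.37, 6.20, 2.01 and 2.596 CPM in Atx2-3xFLAG, and 13.8, 10.0, 14.3 and 6.05 CPM in control. Only Atx2-3xFLAG replicate 2 reached the lowest control library. Mip fell by 1.62 (SE 0.47, fold 0.325) in Atx2-3xFLAG RIP, adjusted p = 0.00940, a call lost without control replicate 1 (-1.41, adjusted p = 0.0566). It was also lost with replicate 3 of all 3 genotypes left out (adjusted p = 0.0786). The control value of 14.3 CPM, in replicate 3, rests on 3 counts in the shallowest library. The Nab2-FLAG difference was -0.77 (adjusted p = 0.233). In Input, Mip was at 7.79, 3.11, 1.42 and 7.98 CPM in Nab2-FLAG lysates, 2.95, 0, 3.05 and 6.59 CPM in Atx2-3xFLAG, and 8.58, 10.7, 5.82 and 6.71 CPM in control, without a call.

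AstC (FBgn0032336; chr2L:11076165-11081399) encodes allatostatin C, an inhibitory peptide of brain and gut. Its RIP level was 13.9, 9.69, 3.40 and 7.73 CPM in Nab2-FLAG lysates, 10.7, 5.51, 11.6 and 9.09 CPM in Atx2-3xFLAG, and 12.8, 16.2, 9.54 and 22.2 CPM in control, with overlap between all groups. AstC fell by 0.90 (SE 0.31, fold 0.535) in Atx2-3xFLAG RIP, adjusted p = 0.0274. The call was lost without Atx2-3xFLAG replicates 2 (adjusted p = 0.107) or 4 (adjusted p = 0.0565), without control replicates 2 (adjusted p = 0.0501) or 4 (-0.62, adjusted p = 0.224), and with DESeq2 (adjusted p = 0.114). In Input, AstC was at 10.0, 6.22, 1.42 and 11.98 CPM in Nab2-FLAG lysates, 9.82, 3.65, 7.12 and 14.5 CPM in Atx2-3xFLAG, and 7.15, 7.67, 13.6 and 11.7 CPM in control, and the groups overlapped.

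Tk (FBgn0037976; chr3R:11994175-12005473), the tachykinin gene, showed a like pattern below the filter on low counts. Its RIP level was 6.37, 2.91, 6.81 and 4.76 CPM in Nab2-FLAG lysates, 2.37, 6.20, 2.01 and 2.596 CPM in Atx2-3xFLAG, and 12.8, 6.94, 14.3 and 5.37 CPM in control. These rest on 29, 21 and 32 counts, and in Atx2-3xFLAG RIP Tk and Mip had equal counts in each of the 4 libraries. The control value of 14.3 CPM is 3 counts in replicate 3, the shallowest library. The ratio of Atx2-3xFLAG RIP to control RIP was 0.392 (95% exact Poisson interval 0.215 to 0.701). With no filter edgeR called the difference (-1.34 ± 0.47, adjusted p = 0.0361), where it called 12.4% of all genes. Tk overlaps Ect3, which rose by 1.48 in the same comparison (adjusted p = 0.00164). Mip, AstC and Tk are also peptides of enteroendocrine cells of the midgut, as are Dh31, NPF and AstA, which had values of the other sign in Atx2-3xFLAG RIP without a call. Dh31 differed from control by 0.69 (adjusted p = 0.196), and the ratio to control was 2.84 for NPF (95% exact Poisson interval 0.942 to 11.5) and 1.25 for AstA (0.743 to 2.15). The 8 midgut markers summed to 10.2 to 27.1 CPM in Nab2-FLAG RIP, 17.6 to 23.7 CPM in Atx2-3xFLAG RIP and 28.6 to 45.7 CPM in control RIP, and the 2 tested ones, the amylases Amy-p and Amy-d, were lower in Nab2-FLAG RIP (both -0.99, adjusted p = 0.0160 and 0.0329). In Atx2-3xFLAG RIP 1 was lower, Amy-p at -0.99 (adjusted p = 0.00991). The trypsins alphaTry, betaTry and lambdaTry and the protease gene Jon99Ci were at 0 in all RIP groups. The part of gut RNA in these peptide differences was not tested.

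SIFa (FBgn0053527; chr2R:24577566-24578143), the precursor gene of SIFamide, which is made by a few neurons of the pars intercerebralis and acts in courtship and feeding, was below the filter and is described because of its values. Its RIP level was 3.58, 0.969, 0 and 2.97 CPM in Nab2-FLAG lysates, 8.31, 11.0, 9.55 and 10.4 CPM in Atx2-3xFLAG, and 1.06, 2.31, 4.77 and 1.34 CPM in control. The Atx2-3xFLAG libraries were all above every other RIP library. On 15, 66 and 7 counts, the ratio of Atx2-3xFLAG to control RIP was 5.63 (95% exact Poisson interval 2.58 to 14.5), and that of Nab2-FLAG to Atx2-3xFLAG RIP was 0.272 (0.144 to 0.481). With no filter, edgeR called both differences (2.43 ± 0.53, adjusted p = 0.000106, and -1.86 ± 0.44, adjusted p = 0.00265), where it called 12.4% and 2.73% of all genes. In Input, SIFa was at 0, 6.22, 8.53 and 3.99 CPM in Nab2-FLAG lysates, 10.8, 5.48, 3.05 and 9.23 CPM in Atx2-3xFLAG, and 5.72, 1.53, 5.82 and 3.36 CPM in control. These groups overlapped, with a ratio of 1.79 of Atx2-3xFLAG to control (0.824 to 4.19). The difference between the RIP and the Input contrast, which is the association with Atx2-3xFLAG, was 1.41 ± 0.91 and did not pass (adjusted p = 1). SIFa overlaps Start1, which did not pass in Atx2-3xFLAG RIP (0.41, adjusted p = 0.302).

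**Figure D3:**
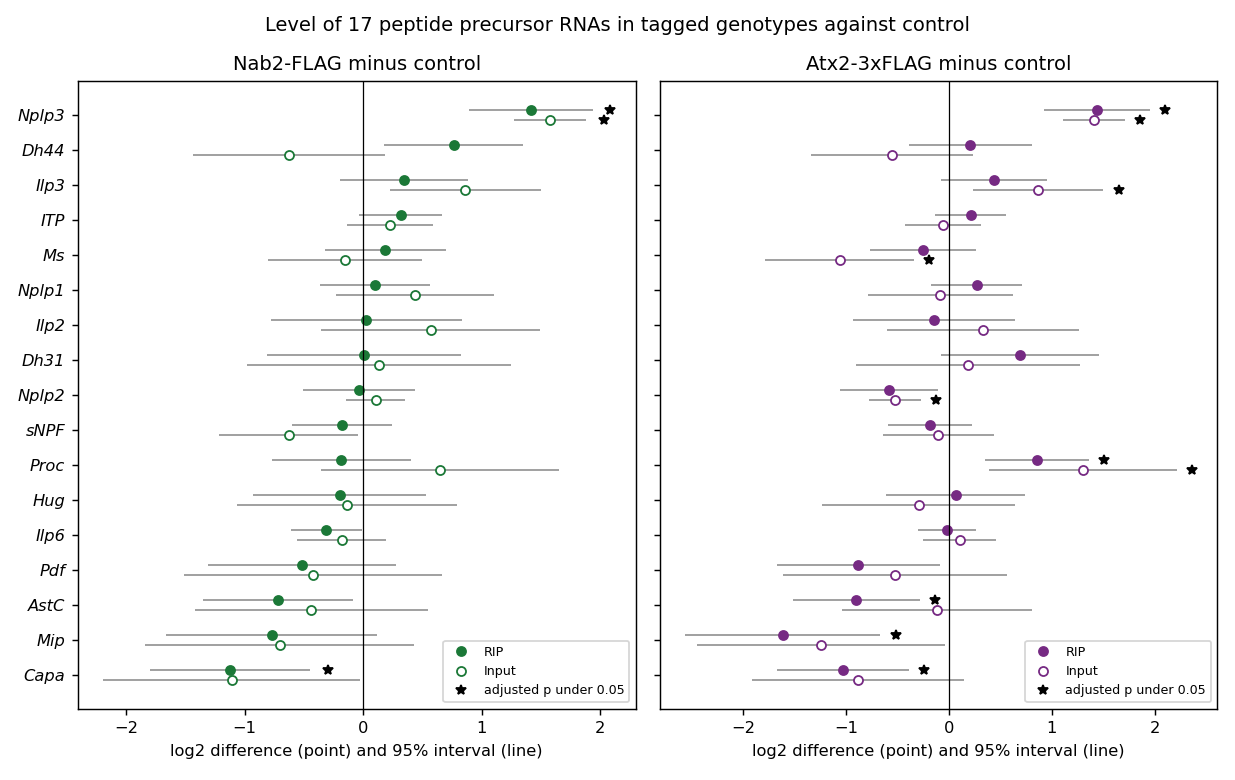
Log2 difference in level from control (x axis, with 95% interval) for the 17 tested neuropeptide genes (y axis), in Nab2-FLAG (left panel) and Atx2-3xFLAG (right panel), for RIP (filled) and Input (open), with a star where the adjusted p was under 0.05. Nplp3 stands at 1.41 to 1.58 in all 4 comparisons, and among the other genes the called differences run from -1.62 (Mip in Atx2-3xFLAG RIP) to 1.30 (Proc in Atx2-3xFLAG Input).

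Of the remaining tested genes, ITP, sNPF, Dh44, Dh31, Pdf and Hug were not called in any comparison. ITP encodes ion transport peptide, an antidiuretic hormone. Its Input level was 60.1, 57.0, 75.3 and 59.9 CPM in Nab2-FLAG lysates, 50.1, 45.6, 45.8 and 64.6 CPM in Atx2-3xFLAG, and 48.6, 50.6, 64.0 and 53.7 CPM in control. In RIP it was 62.5, 53.3, 91.9 and 44.6 CPM in Nab2-FLAG lysates, 51.1, 57.2, 56.3 and 51.1 CPM in Atx2-3xFLAG, and 35.1, 51.6, 38.2 and 49.7 CPM in control, with overlap (Nab2-FLAG 0.32, adjusted p = 0.215). sNPF, the short neuropeptide F precursor that promotes feeding, was in RIP at 30.3, 35.9, 37.4 and 18.4 CPM in Nab2-FLAG lysates, 22.6, 31.7, 28.2 and 29.9 CPM in Atx2-3xFLAG, and 33.0, 32.4, 33.4 and 30.2 CPM in control. Its Input level was 14.5, 20.7, 11.4 and 16.0 CPM in Nab2-FLAG lysates, 23.6, 20.1, 22.4 and 25.0 CPM in Atx2-3xFLAG, and 27.2, 29.1, 17.5 and 23.5 CPM in control. The lowest Input libraries were Nab2-FLAG ones, and the difference from control, -0.63, did not pass (adjusted p = 0.178). Pdf, the transmitter of the circadian clock neurons, averaged 7.54 ± 2.55 CPM in Nab2-FLAG RIP, 5.67 ± 2.13 CPM in Atx2-3xFLAG RIP and 14.0 ± 9.80 CPM in control RIP (SD, n = 4 each), where control replicate 3, the shallowest library, was at 28.6 CPM. The calcitonin-related diuretic hormone gene Dh31 averaged 5.66 ± 4.76, 12.3 ± 2.15 and 8.29 ± 4.63 CPM in the same 3 RIP groups (Atx2-3xFLAG against control 0.69, adjusted p = 0.196). Hug, the hugin precursor, which acts on feeding, averaged 11.9 ± 4.14, 12.5 ± 5.45 and 12.5 ± 2.45 CPM in them.

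Most of the other genes under the filter gave too few counts for a comparison at this depth. CCAP, crustacean cardioactive peptide, had 4, 5 and 0 counts in Nab2-FLAG, Atx2-3xFLAG and control RIP and 2, 3 and 0 counts in the 3 Inputs. NPF, neuropeptide F, had 15, 1, 0 and 2 counts in the Nab2-FLAG RIP libraries, 2, 7, 3 and 7 in the Atx2-3xFLAG ones and 0, 1, 0 and 3 in those of control. In Nab2-FLAG, replicate 1 alone stood above control. Crz, the corazonin precursor, had 11 counts in the Atx2-3xFLAG Input libraries and 20 in those of control, a ratio of 0.410 (0.177 to 0.897). That interval covers counting error only, and the control Input libraries ran from 0 to 14.3 CPM. With no filter, edgeR did not call Crz there (-1.19, adjusted p = 0.262). AstA, Dsk, FMRFa and CNMa had 159, 47, 45 and 42 counts over all libraries, and Lk, AstCC, Nplp4, amn and Akh had 2 to 12. Akh, the adipokinetic hormone, is made outside the brain in the corpora cardiaca.

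The question of the study, association with the tagged proteins, was addressed by the RIP-to-Input ratio of each lysate compared with that in control. No neuropeptide gene was called for Nab2-FLAG (0 of 17, with 0.0976% of all genes, 6 genes, called), for Atx2-3xFLAG (0 of 17, 0.0488% of all genes, 3 genes) or for the difference between them (0 of 17, 0.00% of all genes). At an unadjusted p under 0.05 in edgeR there were 1, 0 and 1 of the 17, where 7.16%, 5.53% and 3.64% of all genes passed. DESeq2 and limma on the ratios also called 0 of them for both proteins. The 17 associations had a median of -0.15 with Nab2-FLAG and of -0.05 with Atx2-3xFLAG, against 0.01 and 0.02 over all genes. Precision differed widely between genes: the SE of a gene's association was 0.12 to 0.90 for Nab2-FLAG, with a median of 0.51, and 0.12 to 0.81 for Atx2-3xFLAG, with a median of 0.50.

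For Nplp3, the most precisely measured of these genes, the interval was narrow. Its association was -0.14 with Nab2-FLAG (95% interval -0.37 to 0.10) and 0.08 with Atx2-3xFLAG (-0.15 to 0.32). Dh44 (FBgn0012344; chr3R:9638182-9650706), which encodes a diuretic hormone related to corticotropin-releasing factor, had the highest association with both proteins. Its log2 RIP-to-Input ratios were 0.98, 0.76, 1.10 and 1.36 in Nab2-FLAG lysates, 0.84, 0.23, 0.03 and 0.89 in Atx2-3xFLAG, and 0.80, -1.47, 0.86 and -0.64 in control. The control lysates split into 2 high and 2 low values, and the high ones lay within the range of both tagged genotypes. The association was 1.51 ± 0.51 with Nab2-FLAG (95% interval 0.50 to 2.52, unadjusted p = 0.00378, adjusted p = 0.321) and 0.94 ± 0.50 with Atx2-3xFLAG (adjusted p = 0.878). Behind these ratios, the RIP level of Dh44 was 21.5, 22.3, 20.4 and 18.4 CPM in Nab2-FLAG lysates, 19.0, 11.0, 14.6 and 13.8 CPM in Atx2-3xFLAG, and 13.8, 5.39, 19.1 and 15.5 CPM in control. Its Input level was 10.0, 12.4, 8.53 and 5.99 CPM in Nab2-FLAG lysates, 9.82, 9.13, 14.2 and 6.59 CPM in Atx2-3xFLAG, and 7.15, 18.4, 9.70 and 25.2 CPM in control. Dh44 overlaps the gene Fst, which had no count in any group.

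Ms was the gene whose ratios in Atx2-3xFLAG were all above control. They were 0.01, 2.07, 0.24 and 0.25 in Atx2-3xFLAG and -0.29, -0.47, -0.39 and -0.21 in control, where 3.42% of all genes had non-overlapping ratios in either direction. The association was 0.85 ± 0.45 (95% interval -0.04 to 1.75, adjusted p = 0.878), and the highest ratio has the Input library with 1 count behind it. The lowest association with Nab2-FLAG was that of Proc, -0.92 ± 0.59 (adjusted p = 0.790), with ratios of 0.21, 0.02, 0.20 and 1.22 in Nab2-FLAG and 1.07, 1.26, 1.07 and 0.95 in control. The lowest with Atx2-3xFLAG was that of AstC, -0.67 ± 0.54 (adjusted p = 0.939). Proc in Atx2-3xFLAG had ratios of 0.43, 1.84, 0.38 and 1.12 and an association of -0.40 (adjusted p = 0.977), so that its higher RIP level came with a higher Input level.

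**Figure D4:**
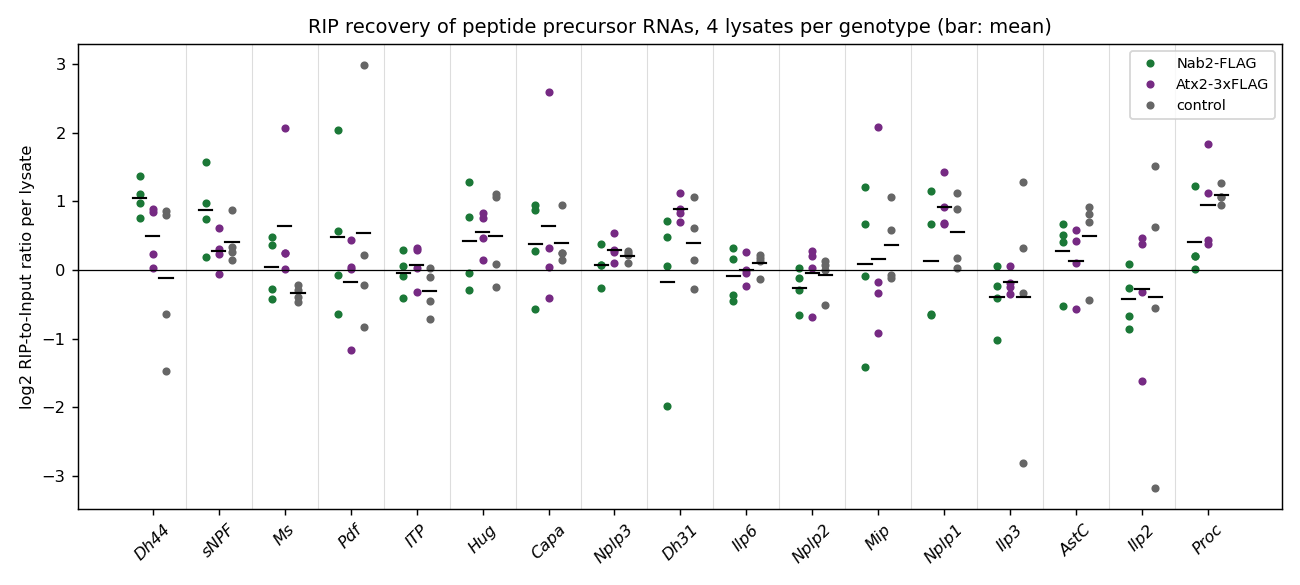
Log2 RIP-to-Input ratio of CPM (y axis) for the 17 tested neuropeptide genes (x axis), with 1 point per lysate and a bar for the mean of 4 lysates in Nab2-FLAG, Atx2-3xFLAG and control. The genotypes overlap for nearly all genes, Ms in Atx2-3xFLAG (0.01 to 2.07, against -0.47 to -0.21 in control) being the exception against control.

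The beads also recovered RNA from control lysates, which hold no tagged protein. In control flies, RIP against Input had a median log2 difference of 0.27 over the 17 neuropeptide genes and -0.01 over all genes. The 10 neuron markers had a median of 0.35 in the same comparison, with 3 called higher and 0 lower. The 10 photoreceptor markers had a median of -0.35, with 0 called higher and 8 lower. None of the 17 was called (0 of 17, against 7.43% of all genes), 2 of 17 passed an unadjusted p under 0.05 in edgeR, against 20.1% of all genes, and DESeq2 called 0. Proc came nearest, with all control RIP libraries above all control Input libraries (1.30, adjusted p = 0.0540). Such a lack of overlap, in either direction, held for 8.83% of all tested genes. The authors' deposited table of RIP-to-Input enrichment lists 12 of these genes among 5760. In the authors' deposited table none of the 12 had a Dunnett-adjusted p under 0.05 for either protein, where 4.3% of listed genes did for Nab2-FLAG and 3.27% for Atx2-3xFLAG. The highest ratios over control in the authors' deposited table were 1.96 for Dh44 with Nab2-FLAG (p = 0.0663) and 3.54 for Ms with Atx2-3xFLAG (p = 0.279).

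The machinery that makes and releases peptides was compared as well, from a list of 19 processing and dense core vesicle genes of which 15 were tested. Pal2, an amidating lyase that completes peptide maturation, was lower in all 4 comparisons of a tagged genotype with control. It averaged 164 ± 9.13 CPM in Nab2-FLAG Input, 154 ± 16.4 CPM in Atx2-3xFLAG Input and 302 ± 58.8 CPM in control Input, and 141 ± 12.1, 134 ± 12.4 and 262 ± 69.6 CPM in the same order in RIP (SD, n = 4 each). Pal2 fell by 0.87 in Nab2-FLAG Input (adjusted p = 1.01e-06), by 0.98 in Atx2-3xFLAG Input (4.82e-08), by 0.81 in Nab2-FLAG RIP (4.08e-06) and by 0.90 in Atx2-3xFLAG RIP (2.13e-07). 7B2, a chaperone of the prohormone convertase amontillado, fell in RIP, to 52.6 ± 4.28 CPM in Nab2-FLAG (-0.83, adjusted p = 1.25e-05) and 52.1 ± 4.24 CPM in Atx2-3xFLAG (-0.90, adjusted p = 9.69e-07), against 95.1 ± 6.61 CPM in control. In Input, where 7B2 was not called, it averaged 64.3 ± 14.7, 57.2 ± 11.6 and 79.1 ± 18.1 CPM in the same order. Rph, the vesicle protein rabphilin, fell in Nab2-FLAG Input (-1.03, adjusted p = 0.00819) and RIP (-0.69, adjusted p = 0.0299). Syt7, a calcium sensor of exocytosis, rose in Atx2-3xFLAG Input (0.86, adjusted p = 0.0435) and Nab2-FLAG RIP (0.80, adjusted p = 0.0159). Cadps, a priming factor of dense core vesicles, was higher in Atx2-3xFLAG RIP than in control RIP (0.63, adjusted p = 4.01e-05). It averaged 214 ± 40.2 and 129 ± 14.0 CPM there, and 222 ± 18.9 and 168 ± 52.1 CPM in the Inputs of these genotypes. In control flies, Cadps was itself lower in RIP than in Input (-0.41, adjusted p = 0.0362). In that comparison 1 of 15 was called in each direction, against 7.43% of all genes. In all, 2 of 15 were called in Nab2-FLAG Input, 2 in Atx2-3xFLAG Input, 4 in Nab2-FLAG RIP and 3 in Atx2-3xFLAG RIP, beside the shares of all genes given above, and 0 for any association.

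Of 39 peptide receptor genes 12 were tested. In Nab2-FLAG Input 3 of 12 fell, where 12.2% of all genes were called: TrissinR (-1.89, adjusted p = 0.00327), the adipokinetic hormone receptor AkhR (-0.86, adjusted p = 0.0185) and SPR, the receptor of sex peptide and Mip (-0.76, adjusted p = 0.0421). In Atx2-3xFLAG Input, with 16.5% of all genes called, 2 of 12 fell, SPR (-1.23, adjusted p = 0.000578) and AkhR (-0.77, adjusted p = 0.0256). In Nab2-FLAG RIP, with 20.0% of all genes called, 1 of 12 fell, the diuretic hormone receptor Dh44-R2 (-0.82, adjusted p = 0.0332). In Atx2-3xFLAG RIP 3 of 12 were called, against 24.1% of all genes: SPR (-0.80, adjusted p = 0.0200) and the sNPF receptor sNPF-R (-0.57, adjusted p = 0.0370) fell, and InR, the receptor of the insulin-like peptides, rose (0.38, adjusted p = 0.0173). InR, 1 of 12 in each case, was also lower in Nab2-FLAG than in Atx2-3xFLAG, in Input (-0.51, adjusted p = 0.0411; 4.26% of all genes called) and in RIP (-0.39, adjusted p = 0.0431; 4.34%). No receptor gene was called for an association. A further 19 peptide and hormone genes outside the set, such as the eclosion and bursicon hormones, gave 3 tested genes and no call in any comparison.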

How the data were processed

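Anti-FLAG RNA immunoprecipitation (RIP) and Input libraries of adult fly heads were sequenced, 24 libraries in 6 groups of 4, with RIP and Input libraries pooled apart for sequencing. The authors deposited whole-number counts per gene. Per the submitters' processing notes, STAR 2.6.0b-1, featureCounts 1.6.3, DESeq2 2.11.40.2 and build BDGP6 were used. Whether counting used strand, and which annotation, is not given in the sources used here, so values of the 14 genes of the set that overlap another gene in RefSeq are uncertain. Per the file headers, a deposited table also gives the ratio of percent input in a tagged genotype over control and a Dunnett-adjusted p-value, from normalized counts. It holds 24 further columns of per-sample values, which were not used.

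The set was matched by exact symbol. The members and all gene lists were chosen with earlier results of these data known. Counts were analysed in R 4.3.3 with edgeR 4.0.16: genes were kept by filterByExpr on the 6 groups, scaled by TMM and tested by the robust quasi-likelihood F test, two-sided, with Benjamini-Hochberg adjustment over 6147 genes and a threshold of 0.05. Comparisons between genotypes used the 12 libraries of 1 pool. Association, the RIP-to-Input log2 difference in a tagged genotype minus that in control, used all 24 libraries with a coefficient per lysate. Log2 ratios per lysate used a prior count of 2. CPM are counts per 1e6 of TMM-scaled library size over all 24 libraries. Genes under the filter were compared by ratios of summed counts over summed TMM-scaled library sizes, with exact Poisson 95% intervals. The fits were tested on simulated data. Depth ran from 220894 to 2109561 counts, so that 3 counts equal 1.19 to 14.3 CPM. Replicates differed by more than sampling noise (chi-square per degree of freedom 1.43 to 8.20), and none was merged.

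Values in every library are given for genes called in a comparison, for the 5 most abundant and for the highest and lowest association with each protein. SIFa, Ilp5 and Tk were added after their values were seen. Of the other lists, at most 4 called genes per comparison were named. Alternatives were DESeq2-type (RLE) or library-size scaling, DESeq2 1.42.0, limma 3.58.1 on the ratios, no filter, a replicate block, leaving out each lysate in turn, and leaving out number 3 of all genotypes, which holds the shallowest RIP libraries.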

Additional observations from a re-analysis of the deposited data

Results flagged for a closer look

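Among 196 groups of 4 values examined (levels of each gene in each group and RIP-to-Input ratios of each tested gene), 13 held a value whose gap to the others exceeded Dixon's 95% critical value for 4 values. For independent values from a normal distribution about 1 in 20 such groups is flagged, here 9.80. These groups share libraries, and some hold values of 0 in all libraries but 1, which are always flagged. The number flagged can therefore not be set closely against that rate. No explanation was tested for any of them.

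In RIP, Pdf was at 28.6 CPM in control replicate 3, against 7.71 to 10.1 CPM in the other 3. Nplp2 in the same library was at 258 CPM, against 369.9 to 383 CPM. AstA was at 14.2 CPM in Atx2-3xFLAG replicate 1, against 5.53 to 6.92 CPM. Tk and Mip were both at 6.20 CPM in Atx2-3xFLAG replicate 2, against 2.01 to 2.596 CPM in the other 3, for each gene. Lk was at 1.59 CPM in Nab2-FLAG replicate 1 and at 0 in the others. In Nab2-FLAG Input, ITP was at 75.3 CPM in replicate 3 (57.0 to 60.1 in the others), Dsk at 4.45 CPM in replicate 1 (0 in the others) and Ilp2 at 22.0 CPM in replicate 4 (8.53 to 10.4 in the others).

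Among log2 RIP-to-Input ratios, AstC was at -0.43 in control replicate 3 (0.70 to 0.92 in the others) and Capa at 0.95 in control replicate 4 (0.14 to 0.25). Ms was at 2.07 in Atx2-3xFLAG replicate 2 (0.01 to 0.25) and Proc at 1.22 in Nab2-FLAG replicate 4 (0.02 to 0.21).

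The effect of the genotype differed between the tagged genotypes for 2 genes, by the direct edgeR test. Nplp2 was higher in Nab2-FLAG than in Atx2-3xFLAG Input by 0.63 on the log2 scale, and Proc was lower in Nab2-FLAG than in Atx2-3xFLAG RIP, with a log2 difference of -1.04. Adjusted p-values for both stand with the per-library values.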

How the results depend on the processing

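None of the called differences of the 17 tested neuropeptide genes changed direction in the alternatives run. Genes of the other lists, markers and genes called with no filter were given no alternatives. The Nplp3 calls in all 4 comparisons with control, the Nplp2 call between tagged Inputs and the Proc call between tagged RIP groups held in all 12 fits that left out a lysate and in the 6 other alternatives run. Counts of called neuropeptide genes moved as follows. For Nab2-FLAG Input the count of 1 became 2 with library-size scaling (Ilp3 added), with no filter (Ilp5) and with the replicate block (Ilp3), and was 1 to 2 with a lysate left out. For Atx2-3xFLAG Input the count of 5 became 3 with library-size scaling, 2 with DESeq2, 2 without number 3 and 6 with no filter, and was 2 to 5 with a lysate left out. Without number 3, the calls of Ms, Proc and Ilp3 in that comparison were lost. For Nab2-FLAG RIP the count of 2 became 1 with DESeq2 and 3 with library-size scaling, and was 1 to 3 with a lysate left out. For Atx2-3xFLAG RIP the count of 5 became 3 with library-size scaling and 8 with no filter, and was 3 to 6 with a lysate left out. For Nab2-FLAG against Atx2-3xFLAG RIP the count of 1 became 2 with no filter (SIFa), with the replicate block (Nplp2) and without number 3 (Nplp2), and was 1 to 2 with a lysate left out. Control RIP against Input gave 7 calls in place of 0 under library-size scaling, which moved the median of all genes in that comparison to 0.39; in the comparisons with control it moved that median to 0.16 and 0.24 (Nab2-FLAG and Atx2-3xFLAG Input) and to 0.13 and 0.18 (RIP). Under it Ms (adjusted p = 0.120), AstC (0.0926) and Capa in Atx2-3xFLAG RIP (0.0561) were not called. The cause of these changes was not tested. The 3 association counts were 0 in all alternatives run.

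The replicate numbers are not stated to mark a shared day or batch, so they were not taken to pair the genotypes. Same-numbered Input libraries had deviations from their group means with a median correlation of 0.122 (7 of 12 pairs above 0.1) and RIP libraries 0.0644 (4 of 12). For the RIP and Input library of 1 lysate, paired by design, it was 0.183 (10 of 12), with a lowest value of -0.079. Low correlations therefore cannot exclude pairing here. In each pool 7 of 12 libraries correlated best with their own number in the other genotypes, where the best was taken among 4 numbers. This is a hint of pairing from the data and not from the design. The replicate block changed counts in 3 comparisons, to 2 in Nab2-FLAG Input, 6 in Atx2-3xFLAG RIP and 2 in Nab2-FLAG against Atx2-3xFLAG RIP, and left the other counts as they were. Depth limits the 15 genes under the filter, and several values of control RIP replicate 3 rest on 0 to 3 counts.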
